A study of Mus musculus with 8 samples.

Results

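The genes described here are 35 genes that fold, transport, inspect and degrade proteins in the endoplasmic reticulum (ER) or that sense misfolded protein there, measured in mouse liver. They were chosen by name for their known function, at a time when earlier results of these data were known, and fall into 6 roles: 5 chaperones, 6 co-chaperones and folding helpers, 6 genes for disulfide isomerases and their relatives, 7 genes of ER-associated degradation, 6 genes of the protein channel in the ER membrane and 5 stress sensors or transcription factors. All 35 were found among the 27453 genes of the deposited files. Of these, 33 had enough reads for the test across 6759 genes, and Derl3 and Eif2ak3 were given by their reads.

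Native polyadenylated RNA of 8 livers was read on nanopores without conversion to cDNA, 1 library per animal, and each file carries its own animal code. The mice were C57BL/6JN, an inbred strain. Titles beginning with O and with Y mark 4 libraries each, and in each set replicates 1 and 2 were males and replicates 3 and 4 females. The series compares young with old liver, but its labels conflict: animals with O titles are listed at 12 weeks of age and animals with Y titles at 80 weeks. Which set is the older one cannot be told apart from the labels, so the sets are named by title and every fold is O-titled over Y-titled. The labels name no drug or allele that differs between the sets. Each library held between 545171 and 2593200 mapped reads, and 3 reads, the floor of detection used, were worth 1.16 to 5.50 CPM (counts-per-million), a limit that covers counting error only. The tissue was whole liver, so fewer cells of a type and less RNA per cell cannot be told apart.

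Proteins bound for secretion enter the ER through the Sec61 channel, are bound by chaperones such as BiP, acquire disulfide bonds and sugar chains, and are either exported or handed to the proteasome by ER-associated degradation. When unfolded protein accumulates, the membrane sensors IRE1, ATF6 and PERK start the unfolded protein response, which raises chaperone and degradation genes and slows translation. Hepatocytes secrete most plasma proteins and therefore carry an extensive ER.

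One sequence feature was shared by members of several roles, and it is shown here because the response is known to act through it. The ER stress response element (ERSE) consists of CCAAT and CCACG set 9 bases apart, and ATF6 and XBP1 are known to act there together with the CCAAT-binding factor NF-Y. Promoters from 250 bases before to 50 bases after the start were taken from RefSeq (GRCm38.p6) and searched on both strands. A promoter was found for 28 of the 35 members, and 9 of the 28 (32.1%) held an exact match. Of all 32851 promoters of the same length 39 did (0.119%), and of the promoters of tested genes 0.159%. In the stretches below, read 5′ to 3′ on the strand of the gene, capitals mark CCAAT and CCACG, or their reverse complements ATTGG and CGTGG where the element runs against the gene.
Hspa5: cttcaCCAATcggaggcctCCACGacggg
Creld2: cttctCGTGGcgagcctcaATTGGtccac
Syvn1: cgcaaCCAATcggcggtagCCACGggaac
Calr: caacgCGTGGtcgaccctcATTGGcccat
Canx: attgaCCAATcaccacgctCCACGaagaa
Hsp90b1, nearer element: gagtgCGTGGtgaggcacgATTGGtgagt
Hsp90b1, farther element: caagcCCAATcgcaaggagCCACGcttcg
Pdia6: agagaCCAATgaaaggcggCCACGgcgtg
Dnajc3: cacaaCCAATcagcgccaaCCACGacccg
Derl3: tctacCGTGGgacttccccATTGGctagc

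The stretches of Hspa5 (chr2:34772020-34772048), Creld2 (chr15:88819515-88819543), Syvn1 (chr19:6046527-6046555), Pdia6 (chr12:17266486-17266514), Dnajc3 (chr14:118937822-118937850) and Derl3 (chr10:75893237-75893265) lie on the plus strand. Those of Calr (chr8:84847070-84847098), Canx (chr11:50325795-50325823) and Hsp90b1 (chr10:86705528-86705556 and chr10:86705633-86705661) lie on the minus strand. The element ended 26 bases before the start in Syvn1, 47 in Hspa5 and 108 in Creld2. Calr had the largest such distance among genes with 1 element, 144 bases. The second form of the element, ATTGG and CCACG with 1 base between them, was present in Dnajb11 and Herpud1 (7.14% of members against 0.0365% of all promoters), and it does not overlap the first form in these windows. The XBP1 element, TGACG followed directly by TGG, was found in 0 of the 28 members and in 0.676% of all promoters. Atf6, Derl1, Erp29, Hyou1, Manf, Sec61a1 and Ssr2 were not searched. A match describes letters in a window and shows no binding.

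In O-titled livers 5 of the 33 tested members fell and 0 rose, and the fall was seen in a chaperone, in folding helpers and in a ubiquitin ligase of the degradation pathway. Hspa5, Sdf2l1, Creld2, Manf and Syvn1 passed, and 28 members did not pass. Among all tested genes 1.92% were called lower and 2.09% higher (edgeR quasi-likelihood test, adjusted p of 0.05 or less). The median log2 fold of the members was -0.26 and that of all tested genes -0.00. Below 0 lay 30 of the 33 members, against 50.1% of all genes. At an unadjusted p under 0.05 there were 15 members, each of them lower, against 8.02% of all genes in that direction. In 11 members every O-titled library lay below every Y-titled one, and in 0 members above. Such separation was present in 4.62% of all genes for lower and 4.1% for higher O-titled values. All 35 members together, with Derl3 and Eif2ak3 included, took 5301 ± 317 CPM in the libraries with O titles and 6405 ± 762 CPM in those with Y titles (mean ± SD, n = 4 each). With the replicate number as a block in place of sex 3 members were called, and without a sex term 2 (Sdf2l1 and Creld2).

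**Figure D1:**
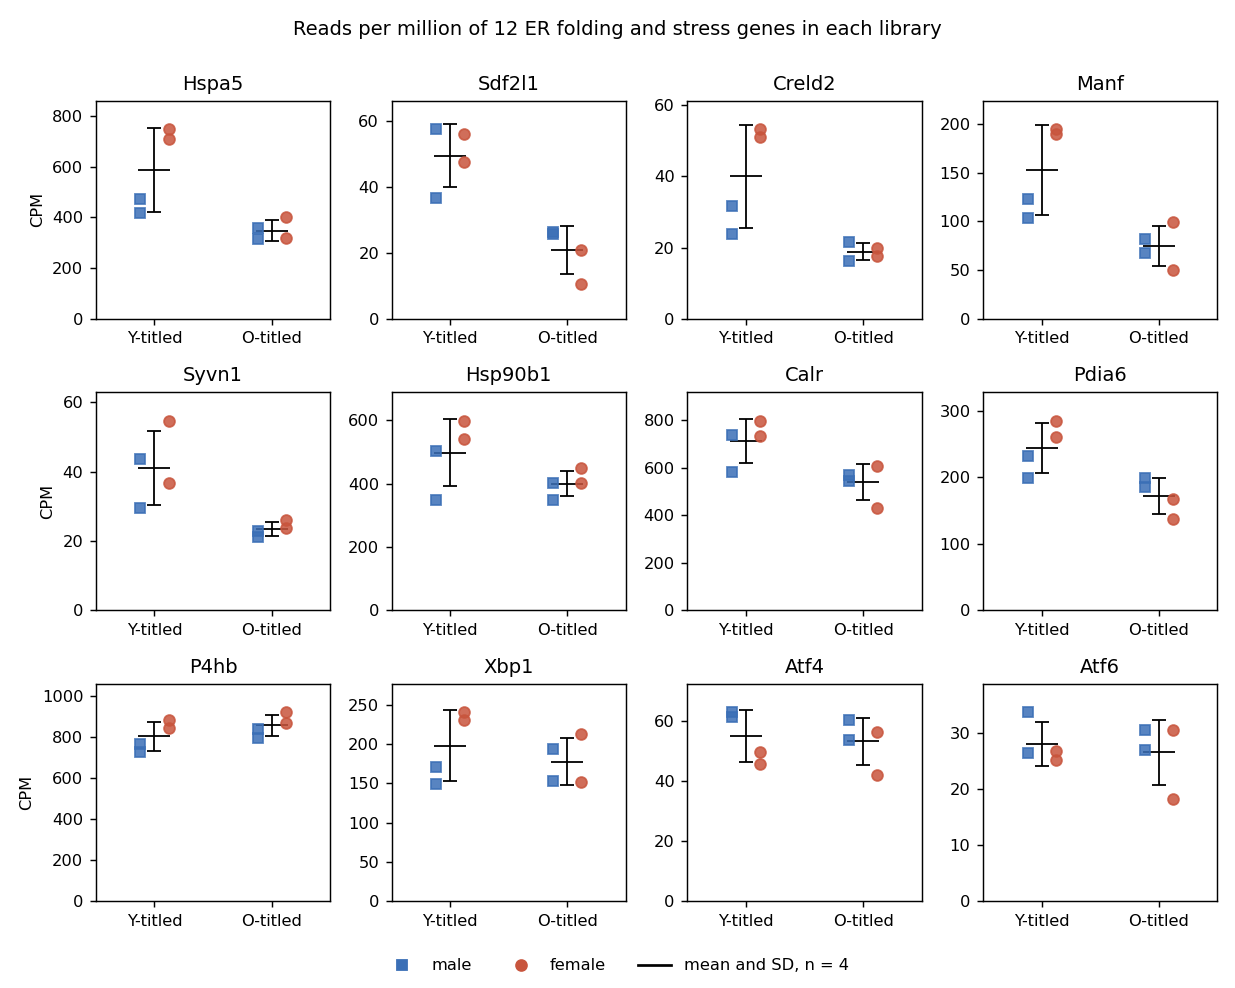
CPM of 12 members in each of the 8 libraries, Y-titled at the left and O-titled at the right of each panel, with squares for males, circles for females and bars for the mean ± SD of 4 libraries. In Hspa5, Sdf2l1, Creld2, Manf and Syvn1 the O-titled points lie below all Y-titled points, while those of P4hb, Xbp1, Atf4 and Atf6 overlap them.

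The chaperones bind unfolded chains and keep them from aggregating. Hspa5, which encodes BiP, the ER's main Hsp70, was read at 356, 314, 401 and 319 CPM in O-titled replicates 1 to 4 and at 419, 471, 749 and 710 CPM in Y-titled replicates 1 to 4. The sets did not overlap, and the Y-titled females stood highest. Hspa5 fell by 0.71 on the log2 scale (SE 0.133, adjusted p = 0.00417), with 234 to 927 reads per library behind it. Without a sex term its adjusted p was 0.0502. Hspa5 (ENSMUSG00000026864) lies on chromosome 2 from 34771970 to 34777547 on mm10 by GENCODE. This span begins upstream of the RefSeq start used for its promoter, so the stretch shown above lies within it.

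The other 4 chaperones had negative folds that did not pass. Calr, the lectin chaperone calreticulin, was at 538 ± 75.5 CPM on the O-titled side against 713 ± 91.7 CPM (log2 fold -0.40, adjusted p = 0.0918). Hsp90b1, the ER Hsp90 known as GRP94, was at 400 ± 40.6 against 498 ± 107 CPM (-0.30, adjusted p = 0.221). Hyou1, a large Hsp70 relative that exchanges the nucleotide of BiP, had a log2 fold of -0.58 with an SE of 0.255 (adjusted p = 0.256). Canx, calnexin, the membrane-bound partner of calreticulin, lay between 230 and 258 CPM in the O-titled set and between 260 and 295 CPM in the other. Its sets thus lay apart by a small margin, and its fold of -0.22 did not pass (adjusted p = 0.321). The 5 chaperones summed to 1544 ± 142 against 2107 ± 362 CPM.

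The co-chaperones and folding helpers had the lowest median of the 6 roles, -0.78, and 3 of 6 fell. Sdf2l1, a partner of the J-domain proteins that serve BiP, was at 26.1, 25.5, 20.8 and 10.5 CPM in the O-titled and 36.5, 57.4, 56.0 and 47.6 CPM in the Y-titled libraries. Every O-titled library was lower, and O-titled replicate 4, a female, was lowest. Sdf2l1 fell by 1.21 (log2, SE 0.244, adjusted p = 0.00898), the largest fall among the members. It passed under each of the 17 alternative settings.

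Creld2, a secreted ER protein linked to disulfide exchange, was at 16.1, 21.5, 20 and 17.5 CPM in the O-titled and 23.9, 31.7, 53.3 and 51.2 CPM in the Y-titled libraries. The O-titled values lay close together, and the Y-titled females were about level with each other above the Y-titled males. Creld2 fell by 1.07 (log2, SE 0.215, adjusted p = 0.00705). After all libraries were thinned to the reads of the smallest, its adjusted p was 0.275.

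Manf, a small neurotrophic factor that is retained in the ER by binding to BiP, was at 82.3, 67.2, 99.0 and 50.4 CPM in the O-titled and 103, 123, 195 and 190 CPM in the Y-titled libraries. The gap between the sets was narrow, from 99.0 to 103 CPM, and the Y-titled females were again highest. Manf fell by 0.98 (log2, SE 0.229, adjusted p = 0.0425). It did not pass without O-titled replicate 2 or 3 or without Y-titled replicate 2, 3 or 4 (adjusted p up to 0.136), nor with the replicate block (0.0688) or without a sex term (0.0863).

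The 3 J-domain members did not pass. Dnajb9 (ERdj4), which delivers clients to BiP and to degradation, was at 49.9 ± 7.15 against 74.3 ± 15.1 CPM without overlap (log2 fold -0.57, adjusted p = 0.0642). Dnajb11 (ERdj3) had a fold of -0.36 (adjusted p = 0.447). Dnajc3 (p58IPK), an inhibitor of eIF2alpha kinases as well as a J-domain protein, had a fold of -0.24 (adjusted p = 0.447). The 6 genes of this role summed to 332 ± 44.2 against 524 ± 120 CPM. On mm10, Sdf2l1 (ENSMUSG00000022769) lies on chromosome 16 from 17130138 to 17132383, Creld2 (ENSMUSG00000023272) on chromosome 15 from 88819646 to 88826683 and Manf (ENSMUSG00000032575) on chromosome 9 from 106838312 to 106891979.

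The disulfide isomerases, which form and reshuffle disulfide bonds, did not all move in 1 direction: 0 of 6 passed, 4 folds were negative and 2 positive, with a median of -0.33. The 4 negative folds each had an unadjusted p under 0.05, beside 8.02% of all genes in that direction. Pdia6, known as P5, lay between 137 and 199 CPM in the O-titled set and between 200 and 286 CPM in the Y-titled one, with a fold of -0.50 (adjusted p = 0.0566). The highest O-titled and the lowest Y-titled value of Pdia6, both from replicate 1, were nearly equal. Without O-titled replicate 1 or Y-titled replicate 1 Pdia6 passed (adjusted p = 0.0375 and 0.0304).

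P4hb, protein disulfide isomerase itself and the beta subunit of collagen prolyl hydroxylase, was at 856 ± 52.6 against 803 ± 71.7 CPM (log2 fold 0.09, SE 0.0997, adjusted p = 0.719). Pdia5 had the largest positive fold of the members, 0.29 (64.1 ± 9.48 against 52.9 ± 4.86 CPM, adjusted p = 0.372). Pdia3 (ERp57), the isomerase that works with calnexin and calreticulin, had a fold of -0.26 (adjusted p = 0.283). Pdia4 (ERp72) had one of -0.45 (adjusted p = 0.12) and Erp29, a relative without an active site for disulfide exchange, one of -0.40 (adjusted p = 0.271). The sums of the 6 genes overlapped between the sets, at 1616 ± 66.1 against 1750 ± 144 CPM.

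Among the genes of ER-associated degradation 1 of 6 tested members fell. Syvn1 (HRD1), the ubiquitin ligase of the membrane complex that ejects misfolded proteins, was at 21.1, 22.8, 26.0 and 23.8 CPM in the O-titled and 29.6, 43.6, 36.7 and 54.8 CPM in the Y-titled libraries. The sets did not overlap, and both sexes were spread through the Y-titled range. Syvn1 fell by 0.77 (log2, SE 0.196, adjusted p = 0.0306). It did not pass in 10 of 17 alternatives, among them DESeq2 (adjusted p = 0.0739), limma voom (0.0538), the replicate block (0.0570), no sex term (0.0631) and the thinned libraries (0.0758). The same held without O-titled replicate 1, 3 or 4 or Y-titled replicate 2 or 4, with an adjusted p up to 0.181. Syvn1 (ENSMUSG00000024807) lies on chromosome 19 from 6046576 to 6053712 on mm10.

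Sel1l, the adaptor that holds Syvn1 in its complex, lay apart between the sets at 51.4 ± 2.65 against 63.6 ± 7.97 CPM but did not pass (log2 fold -0.31, adjusted p = 0.302). Herpud1, which also joins that complex and holds the second form of the promoter element, lay just apart as well, at 290 to 382 CPM against 384 to 392 CPM (-0.19, adjusted p = 0.437). Edem1, which hands mannose-trimmed glycoproteins to degradation, had a fold of -0.18. The derlins, membrane proteins thought to pass clients through the membrane, had folds of 0.10 (Derl1) and -0.12 (Derl2). Derl3 had 9, 1, 4 and 1 reads in the O-titled and 5, 3, 3 and 1 reads in the Y-titled libraries, 15 against 12 in all, so no difference was detectable at this depth (exact permutation test, p = 0.686). The 7 degradation genes, Derl3 included, summed to 761 ± 53.9 against 847 ± 26.9 CPM. Their sets overlapped slightly, with the highest O-titled sum at 830.3 and the lowest Y-titled sum at 830.1 CPM.

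None of the 6 translocon genes passed, although each had a negative fold, with a median of -0.17. Sec61a1, the pore of the channel, was at 107 ± 17.1 against 128 ± 28.8 CPM (log2 fold -0.26, adjusted p = 0.486). Sec61b, a small subunit of the same channel, had a fold of -0.14. Of the TRAP subunits, which assist insertion at the channel, Ssr2 lay apart between the sets (76.4 ± 16.4 against 108 ± 9.22 CPM, -0.46, adjusted p = 0.110). Ssr1, Ssr3 and Ssr4 had folds of -0.11, -0.19 and -0.08 with overlapping libraries. The 6 genes summed to 766 ± 67.1 against 870 ± 90.7 CPM.

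The sensors and transcription factors of the response had the median nearest 0 of the 6 roles, -0.08, and 0 of 4 tested members passed. Xbp1, the factor made active when IRE1 splices its RNA, was at 193, 153, 213 and 151 CPM in the O-titled and 149, 170, 231 and 241 CPM in the Y-titled libraries. Its sets overlapped over most of their range (log2 fold -0.13, SE 0.143, adjusted p = 0.747). Nearly all Xbp1 reads, 99.8%, were assigned to 1 transcript of 2129 bases, and counts per transcript carry no value for its splicing by IRE1.

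Atf4, the factor whose translation rises after PERK acts, was at 60.3, 53.7, 56.4 and 42.0 CPM against 62.9, 61.4, 49.6 and 45.8 CPM (log2 fold -0.04, SE 0.150, adjusted p = 0.951). Atf6, the sensor that is cut to release a transcription factor, was at 30.4, 26.9, 30.4 and 18.2 CPM against 26.4, 33.7, 26.6 and 25.1 CPM (-0.04, SE 0.202, adjusted p = 0.966). Ern1, which encodes IRE1, was at 17.3, 21.5, 15.6 and 16.8 CPM against 18.9, 13.9, 21.1 and 23.3 CPM (-0.19, SE 0.221, adjusted p = 0.759). In each of the 3 the O-titled and Y-titled libraries were interleaved. Eif2ak3, which encodes PERK, had 18, 6, 11 and 4 reads in the O-titled and 12, 4, 10 and 9 reads in the Y-titled libraries, and the exact permutation test on its CPM gave p = 0.657. RNA levels do not show the activity of these sensors, which are switched by cleavage, splicing and phosphorylation.

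**Figure D2:**
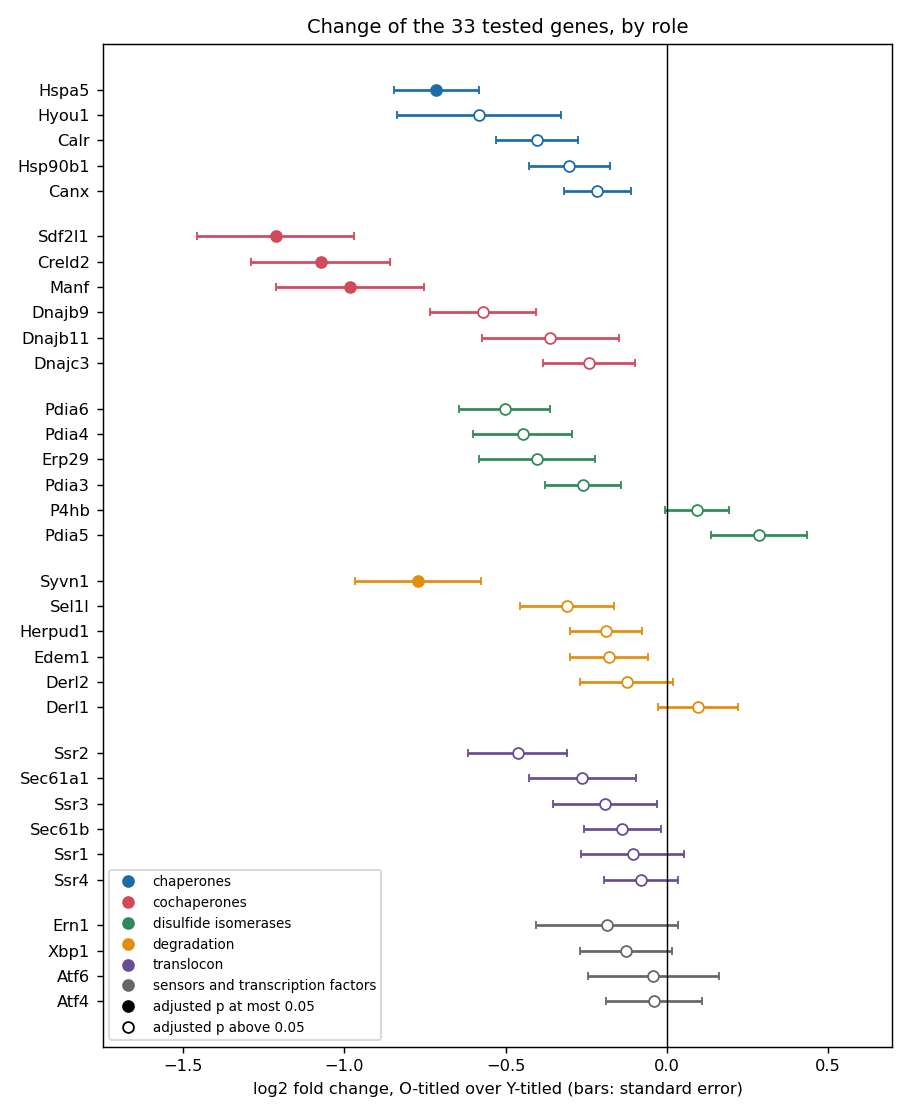
Log2 fold of O-titled over Y-titled libraries for the 33 tested members, grouped by role, with bars for the standard error and filled points for an adjusted p of 0.05 or less. The filled points are Hspa5, Sdf2l1, Creld2, Manf and Syvn1, and the 4 sensor and transcription factor genes lie near 0.

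The members with the promoter element can be set beside those without it, as a description. The 8 tested members with an exact ERSE all had negative folds, from -1.07 to -0.22 with a median of -0.45, and Hspa5, Creld2 and Syvn1 were the 3 that fell. The 18 tested members with a searched promoter and no exact match had a median of -0.18, from -1.21 to 0.29, and Sdf2l1 was the 1 that fell. Of all tested genes 11 held the element, and 8 of those were members. The other 3 did not pass, and their folds over both sexes were positive. Acacb, the mitochondrial acetyl-CoA carboxylase, had 0.54 (adjusted p = 0.307). Acnat2, an acyltransferase, had 0.14 with an SE of 0.593 (adjusted p = 0.963), and Hnrnpa3, an RNA-binding protein, had 0.07 (adjusted p = 0.910). Within females these 3 had folds of 0.06, -0.65 and -0.32, and within males of 1.02, 2.18 and 0.47. The 8 members had median folds of -0.70 within females and -0.23 within males. When 1 of the 10 spelled bases was allowed to differ, a search chosen after the exact matches were known, 14 of 28 members (50%) and 1.5% of all promoters held the element.

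Within females 9 of the 33 tested members fell and 0 rose, while within males 0 passed, but the difference between the sexes itself did not pass for any member. The members called in females were Hspa5, Hyou1, Sdf2l1, Creld2, Manf, Dnajb9, Pdia6, Sec61a1 and Ssr3, with 2.74% of all genes called lower in the same contrast. Hspa5 averaged 360 CPM in the O-titled females against 729 CPM in the Y-titled ones, and 335 against 445 CPM in males (log2 fold -1.02 in females, adjusted p = 0.000239, and -0.40 in males, adjusted p = 0.331). Each of these averages rests on 2 animals, and all 8 libraries shared 1 estimate of the spread.

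Creld2, Manf, Pdia6 and Sdf2l1 also had the more negative fold in females. Creld2 was at 18.7 against 52.2 CPM in females (log2 fold -1.48, adjusted p = 0.00130) and at 18.8 against 27.8 CPM in males (-0.57, adjusted p = 0.583). Manf was at 74.7 CPM in O-titled animals of either sex, and at 193 CPM in Y-titled females and 113 CPM in Y-titled males. Pdia6 was at 152 against 273 CPM in females (-0.85, adjusted p = 0.00225) and at 192 against 216 CPM in males (-0.15, adjusted p = 0.849). The largest fold within females was that of Sdf2l1, -1.76 (adjusted p = 0.00128).

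Sec61a1 and Ssr3 had folds of opposite sign in the sexes. Sec61a1 had -0.67 in females (adjusted p = 0.0302) and 0.17 in males (adjusted p = 0.841), and Ssr3 had -0.59 (adjusted p = 0.0456) and 0.22 (adjusted p = 0.771). Hyou1 had -1.16 in females (adjusted p = 0.0333) and -0.00 in males. Over the 33 members the median fold was -0.45 in females and -0.11 in males, beside -0.01 and -0.00 over all tested genes.

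By the test of the difference between the sexes, 0 of 33 members passed, with 0.385% of all genes passing (edgeR, adjusted p of 0.05 or less). The lowest adjusted p was that of Ssr3, 0.260, followed by Sec61a1 with 0.265 and Pdia6 with 0.299. At an unadjusted p under 0.05 there were 10 of 33 members, each with the more negative fold in females, beside 4.51% of all genes in that direction. Within males 4 of 33 members reached an unadjusted p under 0.05, all lower, beside 4.48% of all genes in that direction, and 0 members were called, beside 1.26% of all genes in either direction. Across both sets, females against males gave 0 called members, beside 2.96% of all genes. At an unadjusted p under 0.05 there were 4 of 33 members, a share near the 12.3% of all genes. Hspa5 was among these 4, with 0.41 (adjusted p = 0.137).

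Several calls within females were lost when single libraries were left out. Hspa5, Sdf2l1, Creld2 and Pdia6 were called in females under all 11 alternatives run for that contrast. Manf was not called without Y-titled replicate 3 (adjusted p = 0.0502), and Sec61a1 not without O-titled replicate 4 (0.286) or Y-titled replicate 3 (0.345). Hyou1 was not called without O-titled replicate 4 or Y-titled replicate 3 or 4, nor after thinning (up to 0.331). Ssr3 was not called in 8 of 11 (up to 0.221), among them without O-titled replicate 3 or 4 and without each Y-titled library in turn, and Dnajb9 not in 9 of 11 (up to 0.445), among them without each library in turn except O-titled replicate 3. In the main fit Ssr3 and Dnajb9 lay close to the threshold in females (adjusted p = 0.0456 and 0.0478), and leaving out male libraries also moved them above it. Without Y-titled replicate 3 there were 4 called members in females, and without O-titled replicate 4 there were 5.

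**Figure D3:**
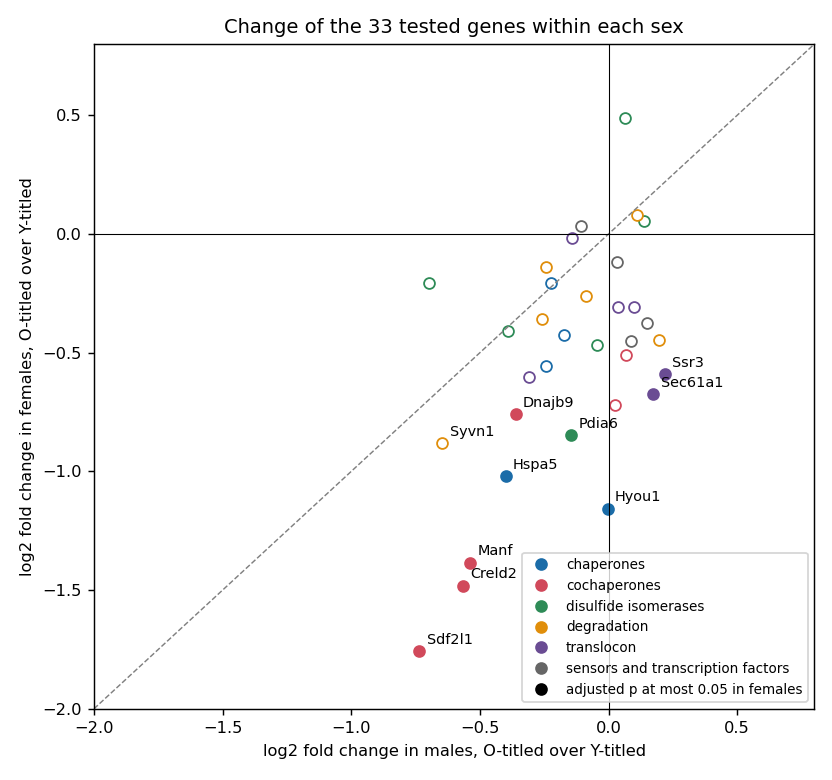
Log2 fold of O-titled over Y-titled libraries within males (horizontal) and within females (vertical) for the 33 tested members, with filled points for members called in females and a dashed line of equal folds. The 9 filled points lie below the line, from -1.76 to -0.59 on the vertical axis.

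Reads were also counted per transcript, and the share of a gene's transcripts could be tested in 10 members with 2 transcripts each: Hspa5, Hyou1, Canx, Manf, Pdia6, Herpud1, Sel1l, Derl2, Ssr2 and Ssr4. None passed, and none reached an unadjusted p under 0.05 (edgeR transcript usage test). Of the 1236 genes tested in this way 0% passed. The smallest p among the members was 0.341 in Pdia6, whose main transcript held 50.9% of its reads. In Hspa5 the main transcript held 55.6% of the reads and in Canx 51.2%, while the reads of Sdf2l1 and Creld2 were each assigned to 1 transcript. Reads averaged 66.4% of the length of the main transcript in Hspa5 and 40.3% in Canx. How reads that match both transcripts were assigned is not given, so these shares may not measure the use of each transcript. The reads of the members averaged 1361 ± 54.8 bases in O-titled and 1414 ± 35.6 bases in Y-titled libraries (exact permutation test, p = 0.143, where the smallest possible p is 0.0286).

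Genes of the same pathways outside the 35 members were read from 8 lists, and 4 of their 135 tested genes fell and 0 rose, with a median of -0.11 and 90 negative folds. Among all tested genes 1.92% were called lower and 50.1% had negative folds. Creb3l3 (CREBH), a liver transcription factor of the ER membrane that is cut like ATF6, was at 135 ± 16.6 against 204 ± 7.94 CPM. It fell by 0.59 on the log2 scale (SE 0.119, adjusted p = 0.00762) and was 1 of 13 tested genes of response signalling. After thinning, Creb3l3 did not pass (adjusted p = 0.163). Ube2g2, the ubiquitin-conjugating enzyme that works with ER ligases, fell from 36.8 ± 2.42 to 22.3 ± 2.21 CPM (-0.74, adjusted p = 0.0204) and was 1 of 24 other degradation genes. It did not pass in 6 alternatives, namely DESeq2, thinning, and without O-titled replicate 1 or 3 or Y-titled replicate 1 or 4 (adjusted p up to 0.440).

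Of 20 tested targets of ATF4 and the amino acid response, 2 fell and 18 did not pass, with a median of -0.06. Atf5, a transcription factor controlled like Atf4, fell from 412 ± 73.4 to 228 ± 58.2 CPM (log2 fold -0.88, adjusted p = 0.0204), and in females its fold was -1.24 (adjusted p = 0.000714). It did not pass without O-titled replicate 2 or 3 or without Y-titled replicate 4 (adjusted p up to 0.0592). Gdf15, a hormone released under cell stress, fell from 15.0 ± 7.64 to 3.66 ± 2.23 CPM (-1.88, adjusted p = 0.0127) on few reads, and without O-titled replicate 1 its adjusted p was 0.106. Ddit3 (CHOP), the factor of prolonged ER stress, had 10, 3, 9 and 7 reads in the O-titled and 8, 5, 5 and 2 reads in the Y-titled libraries, too few for the test across genes. The cystine transporter Slc7a11, also on this list, had 0 reads in each library.

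In the remaining lists 0 genes passed. The gene with the smallest p was Ppib, cyclophilin B, among 19 other folding enzymes (log2 fold -0.30, adjusted p = 0.141), and Mogs, the first glucosidase of glycan trimming, among 11 genes of that pathway (-0.39, adjusted p = 0.410). It was Ostc among 12 subunits of the oligosaccharyltransferase, which attaches the glycans (-0.42, adjusted p = 0.132), and Spcs2, a signal peptidase subunit, among 18 genes of targeting and signal cleavage (-0.35, adjusted p = 0.410). Among 18 genes of the COPII coat, which carries cargo out of the ER, it was Sec24d (-0.43, adjusted p = 0.228). The list medians lay between -0.16 and -0.00.

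**Figure D4:**
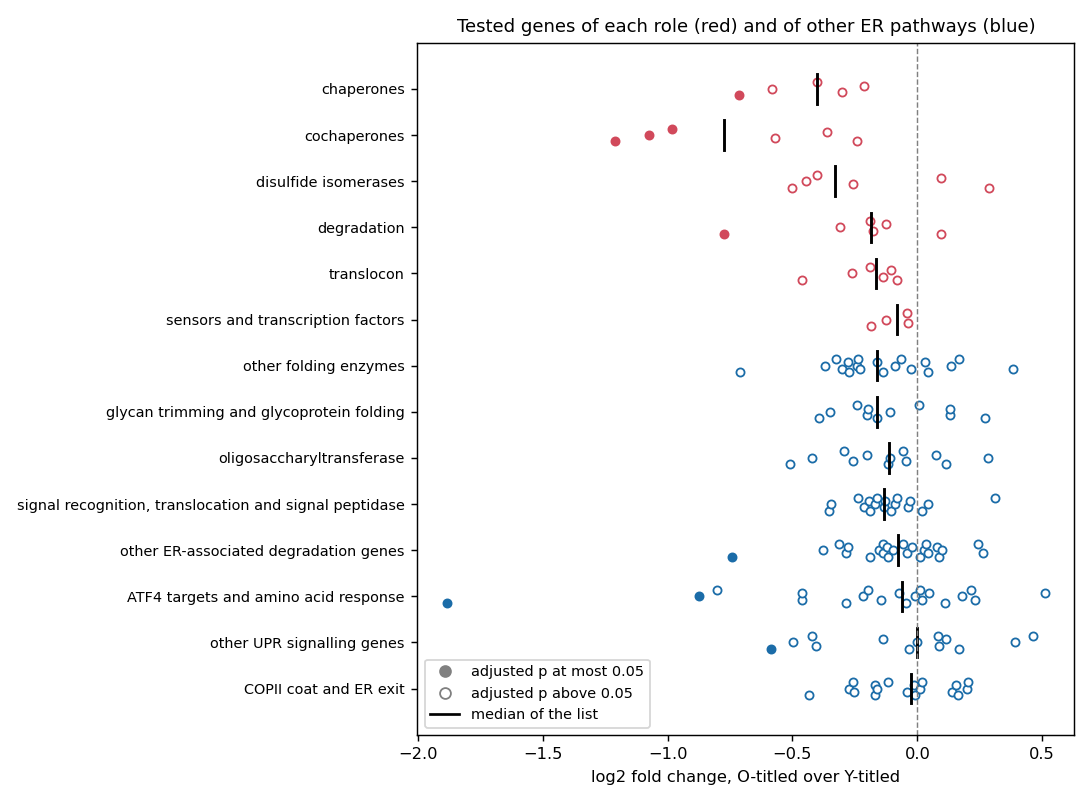
Log2 fold of O-titled over Y-titled libraries for each tested gene in the 6 roles of the members (red) and in 8 lists of other ER pathway genes (blue), with a bar at each median. The role medians run from -0.78 in the co-chaperones to -0.08 in the sensors, and the list medians from -0.16 to -0.00.

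Library composition was read beside these values. Alb, serum albumin, the defining hepatocyte marker, had 29836 to 174051 reads per library, as the liver label implies. Of 9 tested hepatocyte markers 0 passed, and their sum ran from 71809 to 100180 CPM on the O-titled and from 76662 to 117892 CPM on the Y-titled side, where Y-titled replicate 3 was the highest. Of the 9 hepatocyte folds 7 were negative, and 5 markers had an unadjusted p under 0.05, 4 of them lower. Of 11 tested Kupffer cell markers 0 passed (median 0.49, 575 to 1549 against 685 to 820 CPM), but 0 folds were negative and 5 markers had an unadjusted p under 0.05. Among all tested genes 16.2% had such a p, and 50.1% had negative folds. The lymphocyte markers, of which 0 were tested, summed to 14.8 to 67.7 against 17.0 to 22.4 CPM. The neutrophil markers, likewise untested, summed to 6.72 to 38.4 against 0.919 to 15.3 CPM. Of the endothelial markers 1 of 9 rose (264 to 352 against 225 to 320 CPM), as did 1 of 8 stellate cell markers (361 to 441 against 285 to 410 CPM).

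Plasma cells also hold much ER, and 3 of their 10 markers were tested, of which 0 passed (276 to 371 against 276 to 362 CPM, a sum that includes the members Xbp1 and Derl3). Those tested were the member Xbp1, Txndc5 and Fkbp11, while Jchain and Mzb1 had too few reads for the test. Jchain, the joining chain of secreted antibodies, had 87 reads in O-titled and 3 in Y-titled libraries, Mzb1, a co-chaperone of antibody-secreting cells, 16 and 1, and Tnfrsf17 had 0 in each. Txndc5 had 641 and 424 reads, Pou2af1 6 and 2, Irf4 5 and 2, Prdm1 5 and 0 and the member Xbp1 1077 and 842. Only Fkbp11, an ER folding enzyme also on this list, had fewer reads in the O-titled set, 79 against 91. These read totals are not scaled, and mapped reads averaged higher in the O-titled libraries. Core clock genes differed between the sets as well: 4 of 9 tested rose and 0 fell, beside 2.09% of all genes called higher and 1.92% lower. Of the 9, 8 had an unadjusted p under 0.05, 2 of them lower, beside 16.2% of all genes in either direction. The list summed to 390, 446, 466 and 412 CPM in O-titled replicates 1 to 4. On the Y-titled side it summed to 261 and 255 CPM in the males and to 173 and 176 CPM in the females. The mitochondrial share of reads was 7.34% ± 0.391 in O-titled and 8.76% ± 1.67 in Y-titled libraries (exact permutation test, p = 0.114). It was 7.59% and 7.62% in the Y-titled males and 8.66% and 11.1% in the Y-titled females, against 6.82% to 7.74% in the O-titled set. The part of these differences in the values of the members was not tested.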

How the data were processed

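The deposited tables give whole-number counts of reads per transcript and the mean length of those reads. Per the submitters' processing notes, minimap2 2.24, the build mm10 and DESeq2 were used, with no role given for DESeq2. How reads were counted, on which annotation, and what was done with reads that match several transcripts is not given in the sources used here. Gene positions come from GENCODE M21 on mm10, and promoter sequences from RefSeq (GRCm38.p6).

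Transcript counts were summed to genes. edgeR 4.0.16 in R 4.3.3 was run with filterByExpr at a minimum count of 10, trimmed-mean scaling and the robust quasi-likelihood test with sex as covariate, adjusted (Benjamini-Hochberg) over all 6759 genes at a threshold of 0.05. A fit of 4 groups of sex and title gave folds within each sex and the test of their difference. CPM are relative to the reads in tested genes after scaling. Each standard error is the log2 fold over the square root of F. Genes under the filter with at least 10 reads in all were compared on log2(CPM + 0.5), with CPM of all mapped reads, by the exact two-sided test over 70 assignments of the libraries. The fitting script was tested on simulated data.

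Alternatives were 2 other scalings, a minimum count of 20, no filter, no sex term, the replicate number as a block, DESeq2 1.42.0, limma voom 3.58.1, thinning to the smallest library and leaving out each library. Deviations from the set means of same-numbered libraries correlated at 0.411, 0.220, 0.269 and 0.376. The numbers also carry sex, and within sex the correlations were -0.0649 in males and -0.0275 in females.

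The members and lists were chosen with earlier results of these data known. All members are named, with library values for those that passed and for the sensors. Of each other list the text names up to 3 genes that passed with the largest fold, or else the one with the smallest p.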

Additional observations from a re-analysis of the deposited data

Results flagged for a closer look

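One library stood away from its set in the value of one member. Dnajc3, the J-domain co-chaperone p58IPK, was at 113.8 CPM in O-titled replicate 1, with the next O-titled value at 109.2 CPM, in a set whose whole range was 108.5 to 113.8 CPM. The gap made up 0.868 of that range, above Dixon's critical value for 4 samples at 95% confidence, because the other 3 values were nearly equal. It was 1 of 66 sets of values examined in this way, and chance marks about 1 in 20 such sets.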

How the results depend on the processing

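The 5 falls kept their direction in all 17 alternatives, and 28 further members kept their lack of a call in most: of 559 member values, 522 kept direction and side of the threshold, 19 lost a call, 10 gained one (Calr, Dnajb9, Pdia4, Pdia6 and Ssr2) and 8 changed sign, all 8 in members without a call. The number of called members was 5. It was 10 with no filter on low counts, 2 with no sex term, 3 with the replicate block in place of sex (Hspa5, Creld2 and Sdf2l1), and 3 to 6 when single libraries were left out, with 3 without Y-titled replicate 2 and without Y-titled replicate 4. Over all genes 271 were called, against 600 with no filter, 134 with no sex term, 158 after thinning and 154 to 294 with a library left out. Within males 1 member (Pdia4) was called with no filter. Within females 4 to 10 were called with a library left out. For the difference between the sexes 0 to 1 were called (Manf without O-titled replicate 3), and for females against males 1 with no filter and 0 to 2 with a library left out. The causes were not tested. With no filter 15751 genes were fitted and tested in place of 6759, and thinning and left-out libraries lower the reads or samples. Signs changed in folds near 0. With a library left out, Ssr1 ran from -0.20 to 0.042 and was 0.097 after thinning. Xbp1 ran from -0.25 to 0.035, Atf4 from -0.13 to 0.040 and Atf6 from -0.16 to 0.12, in each case highest without O-titled replicate 4. Atf4 was also above 0 without O-titled replicate 2 and without Y-titled replicate 1, and Atf6 without Y-titled replicate 2. For mapped reads the exact permutation p was 0.6 and ran from 0.371 to 0.914 with a library left out, with the sign changed without O-titled replicate 1. With one base allowed to differ, 14 members in place of 9 held the promoter element. The replicate block changed no other call of a member. Depth limits Derl3, Eif2ak3 and Ddit3, and the low-count members Sdf2l1, Creld2 and Syvn1 most among those that passed.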
